A study of Mus musculus with 7 samples.

Results

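The 10 genes of the early transcriptional response, Egr1, Ier2, Ier3, Klf2, Klf3, Klf4, Klf5, Klf6, Klf9 and Klf10, were followed in bile duct epithelium, and all 10 were rows of the deposited table of 24552 gene symbols. They were listed by name. The libraries were made from EpCAM-positive cholangiocytes, the cells that line the bile ducts, freshly sorted from livers of transgenic Foxp3GFPDTR mice. In this strain, as background, regulatory T cells that make the transcription factor Foxp3 also carry a green fluorescent protein and the receptor for diphtheria toxin, so that the toxin kills them. All mice, controls included, carried the transgene and ate a diet with DDC, a porphyrinogenic compound that injures bile ducts, for 10 days. Every 48 h they received an intraperitoneal injection, of saline (the PBS group, 4 libraries) or of toxin (the DT group, 3 libraries, 1 µg/kg of diphtheria toxin). The age of the mice, and whether each library came from a separate animal, are not given in the labels, so p-values measure only the spread between these samples, part of which may be technical. The comparison asks how the 10 genes in the epithelium differ when Foxp3-positive cells are targeted during duct injury. Foxp3 was not counted in any of the 7 libraries (0 counts, a limit of 3 per library from counting error), so the depletion was not measured here.

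Early response genes are switched on within minutes of a signal, without the need for new protein. Egr1 encodes a zinc finger factor that binds GC-rich sites and is induced by MAP kinase signalling, wounding and growth factors. Ier2 and Ier3 encode small proteins without zinc fingers. Ier2 acts in the nucleus, and Ier3 (IEX-1) is a stress and NF-kB target that affects cell survival. The Klf genes encode Krüppel-like factors, which share 3 zinc fingers at their C-terminal end and bind GC-rich and CACCC sequences. They differ in what they do. Klf2 and Klf4 are induced through the kinase Erk5 and by fluid flow in endothelium, and Klf4 and Klf5 often have opposing roles in epithelia. Klf6 is a widely made injury-responsive factor, Klf3 a repressor, Klf9 a target of glucocorticoid and thyroid hormone receptors, and Klf10 a gene that responds to TGF-beta.

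The regulatory sequence just before the start of transcription is described for the members with an entry. A RefSeq set of promoters (GRCm38.p6, another build than the mm9 of the counts) matched 6 of the 10 symbols. Egr1, Ier2, Klf5 and Klf10 were not among them. The 250 bases before the start are printed 5′ to 3′ on the gene's strand for the 3 Klf genes whose windows hold the EGR site GCGNGGGCG, with that site in capitals, because Egr1, itself a member, is a factor that binds this sequence. The window of Klf2 is chr8:72318812-72319061 (plus strand), that of Klf3 chr5:64803271-64803520 (plus strand) and that of Klf4 chr4:55532476-55532725 (minus strand).
Klf2: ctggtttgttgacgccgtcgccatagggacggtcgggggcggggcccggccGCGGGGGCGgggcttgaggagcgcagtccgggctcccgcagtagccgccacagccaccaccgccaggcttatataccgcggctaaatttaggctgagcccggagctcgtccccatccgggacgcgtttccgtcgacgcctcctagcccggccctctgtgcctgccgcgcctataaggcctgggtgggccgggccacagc
Klf3: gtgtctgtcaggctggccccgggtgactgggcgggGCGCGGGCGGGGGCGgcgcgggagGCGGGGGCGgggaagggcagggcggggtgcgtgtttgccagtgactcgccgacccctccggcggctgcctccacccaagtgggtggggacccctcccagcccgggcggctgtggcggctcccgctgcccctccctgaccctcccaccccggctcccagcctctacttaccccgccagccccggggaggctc
Klf4: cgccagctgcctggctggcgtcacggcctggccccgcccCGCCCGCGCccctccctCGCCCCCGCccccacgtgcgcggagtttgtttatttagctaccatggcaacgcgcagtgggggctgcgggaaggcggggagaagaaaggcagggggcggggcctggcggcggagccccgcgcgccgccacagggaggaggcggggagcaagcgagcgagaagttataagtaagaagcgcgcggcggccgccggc
The windows of the 2 most counted members with an entry are shown for contrast, since they hold no EGR site, with the CCAAT box in capitals. That of Klf6 is chr13:5861239-5861488 and that of Ier3 chr17:35821463-35821712, both on the plus strand.
Klf6: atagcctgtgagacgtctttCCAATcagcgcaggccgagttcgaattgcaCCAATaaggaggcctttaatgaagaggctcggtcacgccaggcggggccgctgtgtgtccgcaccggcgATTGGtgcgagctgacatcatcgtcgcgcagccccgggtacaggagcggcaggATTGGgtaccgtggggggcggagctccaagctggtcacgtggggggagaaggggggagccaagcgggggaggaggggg
Ier3: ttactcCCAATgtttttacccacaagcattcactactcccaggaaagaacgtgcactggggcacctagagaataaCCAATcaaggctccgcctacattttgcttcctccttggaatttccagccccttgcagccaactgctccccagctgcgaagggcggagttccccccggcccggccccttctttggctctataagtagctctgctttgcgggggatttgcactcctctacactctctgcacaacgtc

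EGR sites, searched on both strands, were found in 3 of the 6 windows, against 4.7% of 32851 RefSeq windows of the same length. Klf2 held 1 (199 to 191 bases before the start), Klf4 held 2 and Klf3 held 3. The 2 farther from the start in Klf3 share bases, so their capitals run together. Each of these 6 matches overlapped at least 1 GC box (GGGCGG), the sequence bound by Sp factors. The GC box itself was in 5 of 6 windows, against 32.7% of all windows. The 3 windows with EGR sites were the richest in G and C (71.2% in Klf2, 78.4% in Klf3 and 74% in Klf4), where the median window had 52.4%. The CCAAT box, bound by NF-Y, was in the other 3 windows (Klf6 with 4, Klf9 with 3 and Ier3 with 2), against 33.8% of all windows. The CArG box, the site of serum response factor, was in 0 of the 6 windows and in 1.47% of all. The CACCC box (CCACCC) was in 2 of 6 (28.1% of all), the E-box CACGTG in 2 of 6 (6.02%), the CRE half-site TGACG in 3 of 6 (17.8%) and the AP-1 site TGANTCA in 1 of 6 (6.75%). A narrower EGR pattern (GCGTGGGCG or GCGGGGGCG) matched the same 3 genes (3.06% of all windows), and a narrower AP-1 pattern (TGACTCA or TGAGTCA) matched 0 of 6 (4.46%). An NF-kB pattern was in 2 of 6 (42.1%), and the CRE TGACGTCA, the TATA box TATAAA, a STAT pattern, the ETS site CCGGAA and the SMAD site GTCTAGAC were in 0 of 6 (1.55%, 12.4%, 3.27%, 12% and 0.167% of all). The wider patterns and the windows shown were chosen after matches had been seen, so the shares support nothing. A match of letters is a description and not evidence of binding.

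All 10 members passed the filter on low counts and were tested, and their levels spanned a wide range. The reads come from the 3′ ends of transcripts, so the counts were not divided by gene length. Values are CPM, the usual depth-corrected count, here taken over the counts in tested genes after TMM scaling, and each series of values follows the replicate numbers. The order below is that of the mean CPM over the 7 libraries. All 7 libraries were sorted cells from mice on DDC, so the part of the diet and of the sorting in these levels was not tested. Klf6 was the highest, at 2246 CPM, rank 23 of 7688 tested genes. Ier3 (1620 CPM, rank 50) and Egr1 (1565 CPM, rank 51) came next, followed by Klf5 at 833 CPM (rank 141). Ier2 was at 324 CPM, Klf4 at 185, Klf9 at 159, Klf10 at 119.5, Klf3 at 97.2 and Klf2 at 33.3 CPM, rank 5171. Klf6, Ier3, Egr1 and Klf5 held 84.3% to 90.1% of the members' counts in each library. Neighbours in this order were not always separable. Klf6 was above Ier3 in 6 of 7 libraries, but Ier3 was above Egr1 in only 4 of 7. Egr1 was above Klf5, and Klf5 above Ier2, in 7 of 7. Klf4 and Klf9 (4 of 7), Klf9 and Klf10 (5 of 7) and Klf10 and Klf3 (3 of 7) changed places between libraries, so the order among these 4 genes is not resolved.

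Between DT and PBS, 0 of the 10 members passed the edgeR quasi-likelihood test at an adjusted p of 0.05 over all tested genes, where 0.039% of 7688 genes did, and 0 had an unadjusted p below 0.05, where 3.5% did. A p that misses the threshold does not show that a gene did not differ, and the intervals below give the sizes that remain possible. The members were also not called by DESeq2 (2.37% of genes called) or by limma-voom with sample weights (0.156%). In each of the 10 the range of the DT libraries overlapped that of the PBS libraries, where 6.31% of tested genes, and 13% of the 733 highly counted genes (average log2 CPM from 8 up), had no overlap. Of the 10, 5 had positive and 5 negative log2 fold changes, with a median of 0.035, against -0.016 over all tested genes. Together their share of all counts was 0.663% to 0.707% in PBS and 0.633% to 0.789% in DT.

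**Figure D1:**
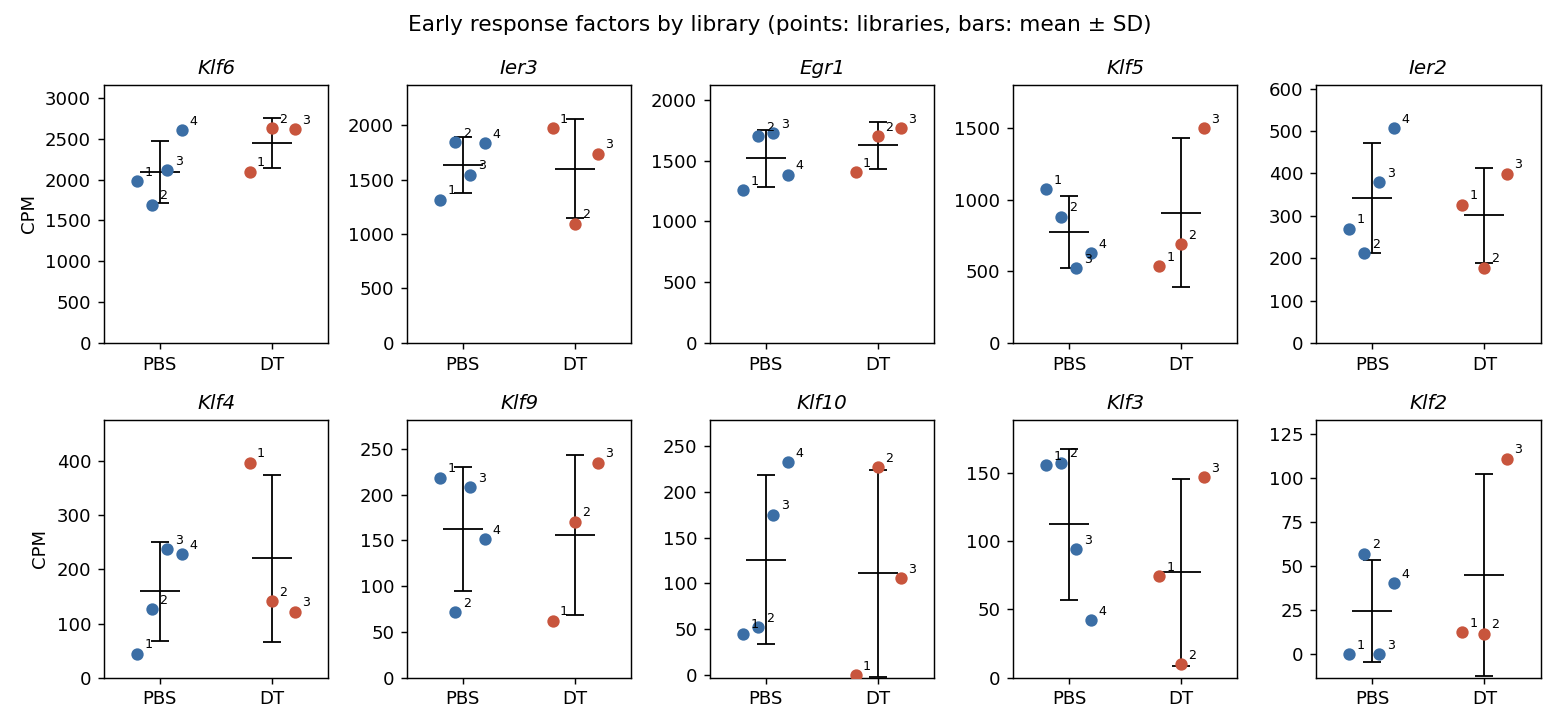
Each panel plots 1 gene, with CPM on the y axis from 0 or just under it and the PBS and DT groups on the x axis. Points are libraries with their replicate numbers, and bars are the mean ± SD. In all 10 panels the range of the DT points overlaps that of the PBS points, from Klf6 at 1690.1 to 2631 CPM down to Klf2 at 0 to 111 CPM.

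Egr1 showed no called difference between the groups. Its CPM was 1258, 1704, 1728 and 1385 in the 4 PBS libraries and 1407, 1702 and 1769.7 in the 3 DT libraries. PBS 1 and PBS 4 lay below all DT libraries and PBS 2 and PBS 3 inside the DT range, and the highest library was 1.41 times the lowest. The means were 1519 ± 234 CPM in PBS (SD, n = 4) and 1626 ± 193 CPM in DT (SD, n = 3), so that the log2 fold change was 0.10 (edgeR adjusted p = 1.00, SE 0.25). The 95% interval, taken from the fit, ran from a fold of 0.759 to 1.51, so a change to or past 2-fold lies outside it.

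Egr1 relatives and the Nab corepressors, which bind Egr1 and restrain it, were counted far less. Nab1 counted 755, 1316, 571 and 1164 in the 4 PBS libraries and 6, 297 and 874 in the 3 DT libraries (log2 fold change -1.42, edgeR adjusted p = 1.00, SE 1.00). DT 1 was the low library, and DT 3 lay inside the PBS range. Nab2 counted 531, 0, 884 and 310 in PBS libraries and 194, 10 and 546 in DT libraries (log2 fold change -0.99, SE 2.06). Egr2 and Egr3 each had 0 counts in 2 of 7 libraries, and Egr4, at 27 counts in PBS 4 and 279 in DT 3 only, was not tested. Of the 4 tested genes of this list 2 had positive and 2 negative fold changes, and 0 passed.

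The Ier genes also showed no called difference. Ier3 was at 1314, 1842, 1546 and 1833 CPM in the 4 PBS libraries and at 1975, 1094 and 1736 CPM in the 3 DT libraries. Both the highest library, DT 1, and the lowest, DT 2, were DT libraries. The log2 fold change was -0.03 (edgeR adjusted p = 1.00, SE 0.25), with a 95% interval from a fold of 0.688 to 1.40. Ier2 was at 269.8, 211, 379 and 507 CPM in PBS and at 326, 178 and 399 CPM in DT. PBS 4 was the highest and DT 2 the lowest, with a log2 fold change of -0.18 (edgeR adjusted p = 1.00, SE 0.47) and an interval from a fold of 0.456 to 1.70. Ier5, an intronless relative of Ier2, counted 3012, 3979, 2293 and 4145 in PBS libraries and 1173, 3207 and 2808 in DT libraries (log2 fold change -0.63, edgeR adjusted p = 1.00, SE 0.38). Here only DT 1 lay below the PBS range. Ier5l, the other gene of this kind, was sparse, with 55, 338, 0 and 189 reads in PBS and 23, 0 and 0 in DT (log2 fold change -4.47, edgeR adjusted p = 1.00, SE 3.89), and its groups overlapped at 0.

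Among the Klf genes, Klf6 had the most counts and the narrowest interval. Its CPM was 1980.1, 1690.1, 2111 and 2601 in the 4 PBS libraries and 2096, 2631 and 2615 in the 3 DT libraries. DT 2 and DT 3 were the top libraries, but only just above PBS 4, and DT 1 lay inside the PBS range. The means were 2096 ± 380 CPM in PBS (SD, n = 4) and 2447 ± 304 CPM in DT (SD, n = 3). The log2 fold change of 0.22 (edgeR adjusted p = 1.00, SE 0.22) had a 95% interval from a fold of 0.856 to 1.59.

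Klf5, a factor of proliferating epithelium, was at 1073, 882.5, 522 and 627 CPM in PBS and at 534, 689 and 1503 CPM in DT. DT 3 alone carried the higher DT mean, and DT 1 lay near the lowest PBS library. The log2 fold change was 0.23 (edgeR adjusted p = 1.00, SE 0.33), and -0.35 without DT 3. Its counterpart Klf4, a factor of differentiated epithelium, was at 44.3, 127, 238 and 228 CPM in PBS and at 397, 142 and 122 CPM in DT. Here it was DT 1 that stood high, while DT 2 and DT 3 lay inside the PBS range. The log2 fold change was 0.47 (edgeR adjusted p = 1.00, SE 0.68), and -0.29 without DT 1. With a covariate for Y-linked reads it was 2.31. Only PBS 1 of the PBS libraries has such reads, so that fit in effect sets DT against PBS 1 alone. PBS 1 was the lowest library in Klf4. Among the 3 DT libraries, the highest in Klf5 was the lowest in Klf4, and the highest in Klf4 was the lowest in Klf5. The same held among the PBS libraries, where PBS 1 was highest in Klf5 and lowest in Klf4, and PBS 3 the reverse. With so few libraries in each group this is a description only.

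Klf2 was near the limit of detection, counting 0, 290, 0 and 205 in the 4 PBS libraries and 75, 63 and 630 in the 3 DT libraries. DT 3 was the highest library and 2 PBS libraries were at 0, so its log2 fold change of 0.89 has an SE of 2.83, and it was -1.01 without DT 3. Endothelial cells make much Klf2, and of 15 endothelial markers 7, among them Lyve1, Clec4g and Vwf, had 0 counts in every library. The other 8 had counts in some libraries. In DT 3 these were Ptprb (500 counts) and Kdr (104), in DT 1 Egfl7 (678) and Pecam1 (348), and in DT 2 Eng (8). In PBS 2 they were Egfl7 (112) and Tie1 (28), in PBS 3 Cdh5 (169), and in PBS 4 Stab2 (134), Egfl7 (79) and Ptprb (31). The summed level of that list was 0 to 48.2 CPM in PBS and 1.502 to 170 CPM in DT. In DT 1, its highest library, Klf2 was at 12.5 CPM, and in DT 3, with Klf2 at 111 CPM, the list was at 107 CPM. The part of such cells in the Klf2 counts was not tested. In bulk samples, fewer cells of a type and less RNA per cell cannot be told apart.

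Klf3, Klf9 and Klf10 had moderate counts and wide intervals. Klf3 counted 801, 799, 457 and 214 in the 4 PBS libraries and 447, 53 and 834 in the 3 DT libraries. DT 3 was the highest of the 7 in counts and DT 2 the lowest, and the log2 fold change was -0.54 (SE 1.32). Klf9 counted 1124, 361, 1009 and 767 in PBS libraries and 374, 907 and 1331 in DT libraries, with a log2 fold change of -0.06 (SE 0.76). Klf10 counted 233, 263, 849 and 1177 in PBS libraries and 0, 1208 and 599 in DT libraries, with a log2 fold change of -0.19 (SE 1.33). Its 0 in DT 1 is beside 1208 in DT 2. Tested genes at 100 to 250 CPM, the level of Klf10, had 2.39% of their values at 0, and DT 1 was the library with the fewest genes counted (5419 of 24552). Each of the 3 had an edgeR adjusted p of 1.00.

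**Figure D2:**
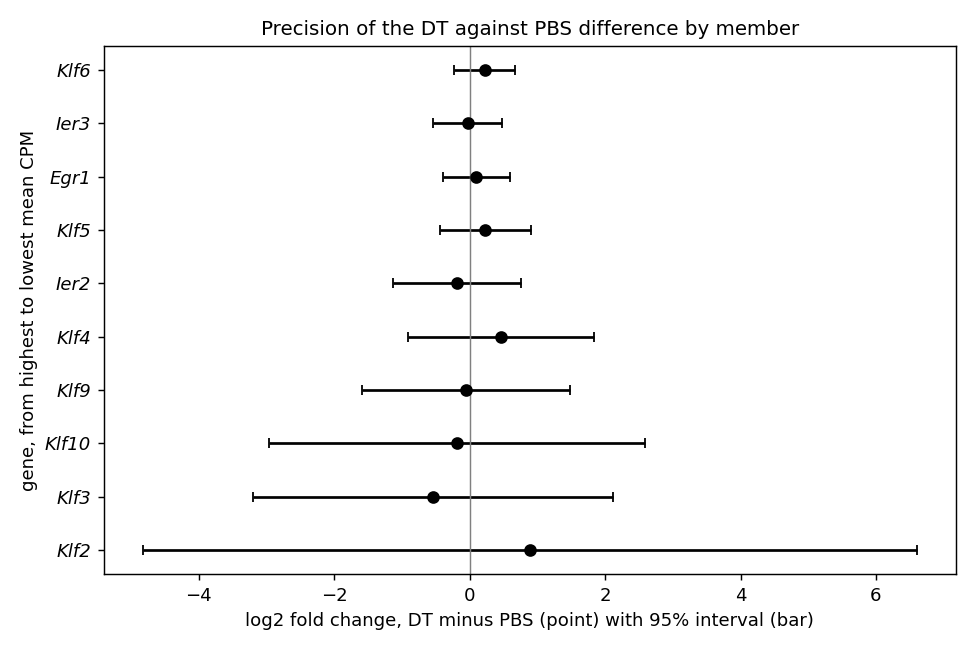
The x axis gives the log2 fold change (DT minus PBS, edgeR) as a point with its 95% interval as a bar, and the y axis lists the members from the highest to the lowest mean CPM. All 10 intervals include 0, and those of Klf6, Ier3, Egr1 and Klf5 stay within a 2-fold change either way, while that of Klf2 runs from -4.83 to 6.60.

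Members with lower levels differed more between libraries. The coefficient of variation (CV, the SD as a percent of the mean) was 15.4% in PBS and 11.9% in DT for Egr1 and 18.1% and 12.4% for Klf6, where the 111 tested genes at 1000 CPM or more had medians of 20.2% and 19.3%. Ier3 was at 15.5% in PBS but 28.4% in DT. Klf5 was the member that varied most for its level in DT, at 57.3%, where the 206 genes at 500 to 1000 CPM had a median of 25.3%, with DT 3 as the library that stood apart. In PBS its CV was 32.1%, where the median was 30.2%. Ier2, at 38.1% and 37.5%, was near the medians of its class (35.8% and 35.9%). Klf10 was above its class in both groups (73.4% and 102%, medians 56% and 53.3%), and Klf3 was below its class in PBS (49.2%, median 82.1%). Both lie near the class edge at 100 CPM. Against the class of Klf3, Klf10 was below the PBS median of 82.1% and above the DT median of 86.8%. Against the class of Klf10, Klf3 in PBS was nearer the median (56%). At the low end, Klf2 had a CV of 119% and 127%. No single library was high or low throughout. DT 3 was the highest library, in CPM, for Egr1, Klf5, Klf9 and Klf2, and DT 2 the lowest for Ier3, Ier2 and Klf3 while the highest for Klf6.

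**Figure D3:**
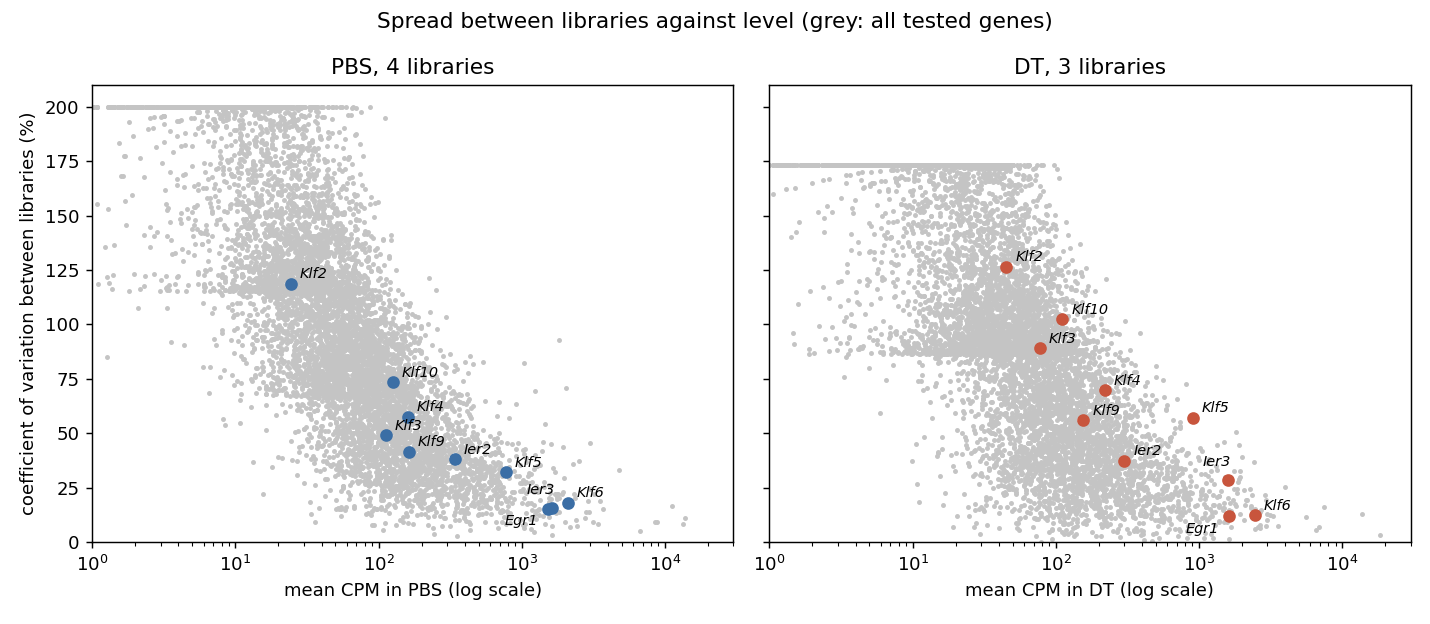
The x axis gives the mean CPM of a group (log scale) and the y axis the coefficient of variation between its libraries in percent, for PBS at left and DT at right. Grey points are all tested genes and coloured points the 10 members, which run down the cloud from Klf2 to Klf6, with Klf5 at 57.3% in DT at its upper edge.

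No other Klf or Sp gene was called by edgeR. Of the 10 remaining Klf genes Klf14, Klf15 and Klf17 had 0 counts in every library and 4 were tested, with 0 called. Klf13, counted in every library, had the smallest p of them, with 1241, 53, 881 and 650 counts in the 4 PBS libraries and 1297, 2295 and 1242 in the 3 DT libraries (log2 fold change 1.04, edgeR adjusted p = 1.00, SE 0.68). All 3 DT values were above all 4 PBS values in counts, but not in CPM, where PBS 1 lay inside the DT range. Klf11 counted 0, 709, 190 and 877 in PBS libraries and 752, 319 and 765 in DT libraries (log2 fold change 0.28, SE 1.43). Of the 9 Sp genes 3 were tested, with log2 fold changes of -0.56 for Sp3 (SE 2.13), 0.16 for Sp1 (SE 1.498) and -0.12 for Sp4 (SE 3.22), and 0 passed. Sp2, too sparse for that test, counted 758 in DT 1, 190 in DT 3 and 0 in the other 5 libraries, and DESeq2 called it (adjusted p = 0.0468).

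Other immediate early genes were not called by edgeR either. Of the 8 genes in the list of AP-1 subunits and Atf3, 4 had positive and 4 negative fold changes, with a median of -0.005 and 0 passing the edgeR test. Junb, an AP-1 subunit, had a log2 fold change of -1.11 (edgeR adjusted p = 0.288, SE 0.27) with every DT library below every PBS library, and Atf3, a stress-induced factor, had 0.87 (edgeR adjusted p = 1.00, SE 0.40). Of 27 other tested immediate early genes 20 had negative fold changes, with a median of -0.30, and 0 passed. Dusp1, a phosphatase that turns MAP kinases off, had -1.03 (edgeR adjusted p = 0.288, SE 0.25). Csrnp1, a nuclear factor induced by axin, had -2.43 (edgeR adjusted p = 1.00, SE 0.96). By DESeq2 Junb, Dusp1 and Csrnp1 were called lower (adjusted p = 4.19e-05, 3.28e-05 and 0.0321), as were 1.76% of genes. By limma-voom Junb and Dusp1 were also called (adjusted p = 0.0359 and 0.00266), and Csrnp1 was not (adjusted p = 0.738).

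Ratios within a library do not depend on scaling. Junb and Dusp1 were chosen for them because their values were low in DT, so higher ratios in DT follow from that choice for any gene that is not equally low, and they have no test. Egr1 had 0.751, 1.04, 0.732 and 0.951 counts per Junb count in the 4 PBS libraries and 2.13, 2.05 and 1.79 in the 3 DT libraries. Klf6 had 1.18, 1.04, 0.895 and 1.79 counts per Junb count in PBS and 3.17, 3.16 and 2.65 in DT. Ier3 had 0.784, 1.13, 0.655 and 1.26 in PBS and 2.99, 1.32 and 1.76 in DT. In each of these 3 ratios the DT libraries lay above the PBS libraries. Against Dusp1, the ratios of Egr1 and Klf6 also did not overlap (0.460 to 0.781 against 1.13 to 1.76, and 0.723 to 1.15 against 1.74 to 2.62), but that of Ier3 did, with 0.724 in DT 2. The ratios do not say which gene of a pair differed.

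**Figure D4:**
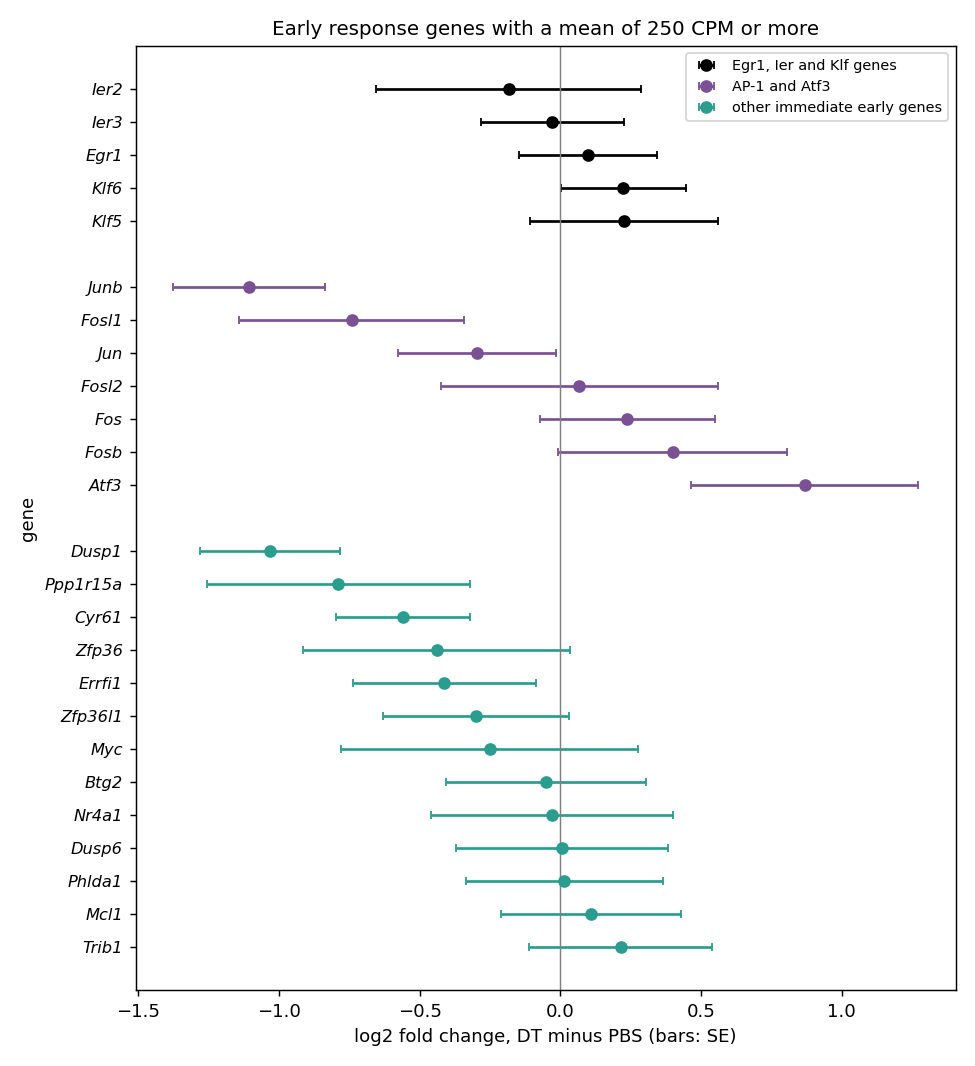
The x axis gives the log2 fold change (DT minus PBS) with its SE as a bar, and the y axis the genes with a mean of 250 CPM or more, in black for the members, purple for AP-1 genes and Atf3 and green for other immediate early genes. The 5 members shown lie between -0.18 and 0.23, while Junb and Dusp1 lie below -1 and Atf3 at 0.87.

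Upstream of the members, Erk5 (Mapk7), the kinase that induces Klf2 and Klf4 through Mef2 factors, counted 788, 83, 809 and 645 in the 4 PBS libraries and 2, 35 and 2 in the 3 DT libraries. All DT libraries lay below all PBS libraries, and PBS 2 was the closest. The log2 fold change of -5.57 (SE 2.49) did not pass edgeR (adjusted p = 1.00) or limma-voom (adjusted p = 0.697), but passed DESeq2 (adjusted p = 0.00445). Mef2a counted 952, 1530, 1388 and 505 in PBS libraries and 425, 524 and 389 in DT libraries (log2 fold change -1.46, edgeR adjusted p = 1.00, SE 0.78). Its groups overlapped in counts but not in CPM. Klf2 and Klf4, beside these, had positive fold changes that did not pass. Of 16 tested genes in this list of kinases and transcription factors 5 had positive and 11 negative fold changes, with a median of -0.57. The groups did not overlap in 3, with DT below, where 2.58% of tested genes were so placed, and 0 passed the edgeR test.

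Genes that respond to the same signals as Klf10 and Klf9 gave no common direction. Of 13 tested TGF-beta responsive genes, 8 were positive, the median log2 fold change was 0.05 and 0 passed by edgeR. The groups did not overlap in 2, both with DT below, where 2.58% of tested genes and 41 of 733 highly counted genes were so placed. Ctgf, a matricellular protein gene, had -1.03 (edgeR adjusted p = 0.375, SE 0.26) and was called lower by DESeq2 (adjusted p = 0.00112) but not by limma-voom (adjusted p = 0.118). The second of these genes, Skil, a repressor of Smad signalling, counted 3152, 2103, 988 and 1932 in PBS libraries and 924, 200 and 1070 in DT libraries (log2 fold change -1.67, edgeR adjusted p = 1.00, SE 0.55). Of 9 tested glucocorticoid responsive genes, 5 were positive and the median was 0.01. Mt2, a metallothionein, counted 11854, 6484, 5862 and 10440 in PBS libraries and 14950, 15136 and 15354 in DT libraries (log2 fold change 0.65, edgeR adjusted p = 1.00, SE 0.24), and passed by limma-voom (adjusted p = 0.00799). Errfi1, an inhibitor of the EGF receptor, had -0.41 (edgeR adjusted p = 1.00, SE 0.33).

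The genes whose levels ran closest to the 3 most counted members were taken from 738 tested genes with a mean of 250 CPM or more, by the root mean square difference of centred log2 CPM over the 7 libraries. Klf6 was closest to Brd2, which encodes a bromodomain protein that binds acetylated chromatin, at 0.06, then to Fos, an AP-1 subunit, at 0.10, and to the ER chaperone gene Hspa5 at 0.14. All of these differences are smaller than the SD of Klf6 itself (0.25). Fos and Klf6 had their lowest level in PBS 2 and their highest in DT 2. Ier3 was closest to Rbm25 (0.12), a splicing factor gene, Pmepa1 (0.15) and Sqstm1 (0.19), with an SD of its own of 0.31. Egr1 was closest to Tpm1 (0.10), Gas6 (0.14) and Atp1b1 (0.16), with an SD of its own of 0.20. The libraries share their depth and scaling across genes, and with 7 points such likeness is a description only.

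**Figure D5:**
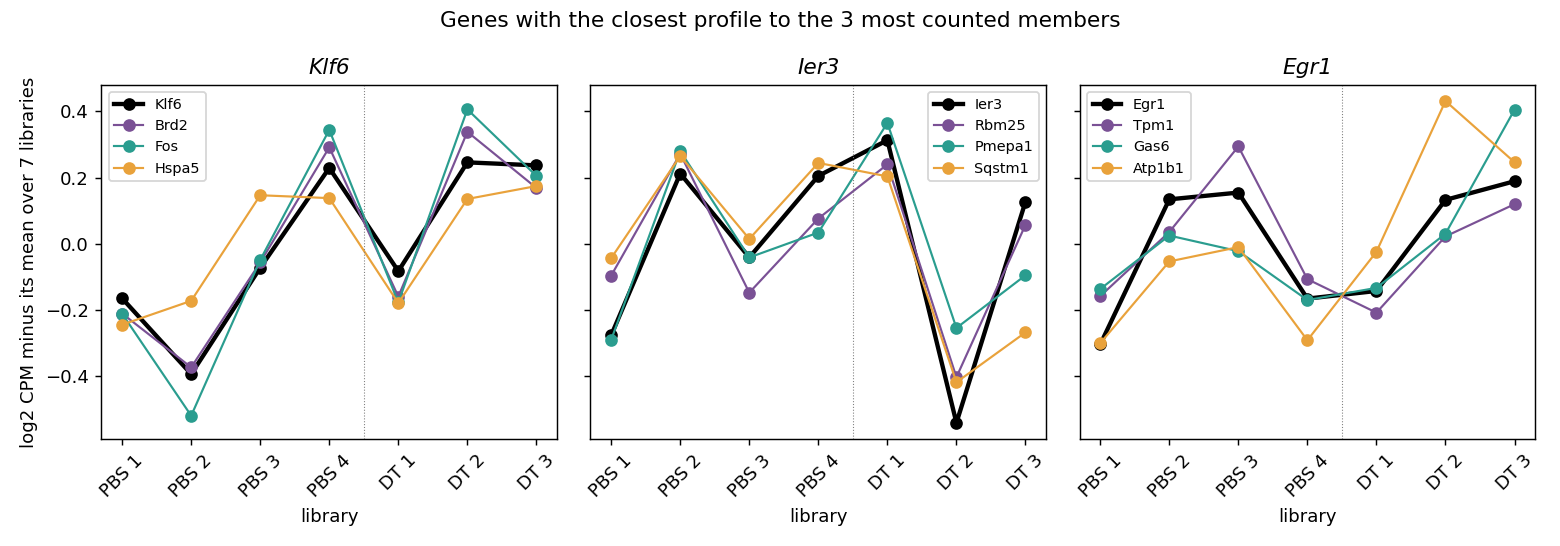
The x axis gives the 7 libraries, with a dotted line between PBS and DT, and the y axis log2 CPM minus the mean of the gene over the libraries. Black lines are Klf6, Ier3 and Egr1 and coloured lines the 3 closest genes of each. Brd2 and Fos track Klf6 through its low in PBS 2 and its highs in PBS 4, DT 2 and DT 3.

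Across the whole table, total counts were 4805018 to 6285624 per library, and 5419 to 8361 genes had a count. Cholangiocyte markers were present throughout: all 13 listed, from Epcam to Onecut1, had counts, with a summed level of 19930 to 23850 CPM in PBS and 22020 to 26750 CPM in DT. Epcam itself had a log2 fold change of -0.24 (SE 0.30) and Krt19, a duct keratin, of 0.61 (SE 0.37), and the smallest p in that list were those of Sox9 (0.71, SE 0.27) and Spp1 (0.31, SE 0.15). Hepatocyte markers summed to 2245 to 3975 CPM in PBS and 3886 to 5644 CPM in DT. Alb was at 0.75 (SE 0.27) and Serpina1b at 3.00 (SE 1.96) on the log2 scale. In both, every DT library was above every PBS library, as in 287 of 7688 tested genes. Macrophage and monocyte markers summed to 165 to 1594 CPM and 354 to 803 CPM. The remaining marker genes with the smallest p, Egfl7, Itgam, C1qb, S100a9, S100a8 and Ddx3y, had SEs of 2.27 to 3.37. Each of these marker genes had an edgeR adjusted p of 1.00. PBS 4 stood apart in immune markers, since it held the macrophage maximum of 1594 CPM (the other PBS libraries 165 to 303) and the neutrophil maximum of 386 CPM, where PBS 1 to 3 were at 0 and DT at 36.7 to 191. No member was called with or without PBS 4, so the calls say nothing about that library. Without it the log2 fold changes of Ier2, Ier3 and Klf10 turned positive (0.07, 0.03 and 0.28), and the other members kept their sign. Markers of T and NK cells summed to 0 to 38.5 CPM in PBS and 6.88 to 137 CPM in DT. Among them Gzma, a granzyme gene that edgeR did not test, was at 821 counts in DT 1, 286 in DT 2 and 0 in the other 5 libraries, and DESeq2 called it (adjusted p = 0.0247). Cdh1, the epithelial cadherin gene on the cholangiocyte list, was lower in every DT library than in every PBS library (log2 fold change -0.34, SE 0.20) and was called by limma-voom (adjusted p = 0.0296) but not by edgeR (adjusted p = 1.00). Gzma, the other T and NK genes named and Cdh1 were chosen after their values were seen. Stellate and fibroblast markers stayed at or below 136 CPM, and B cell markers at 0. Y-linked genes had counts in PBS 1 and in all 3 DT libraries (880 to 2048) and 0 in PBS 2 to 4, so this difference runs largely with the groups. The part of these other transcripts in the members' values was not tested. Y-linked reads entered as a covariate, but that fit has only PBS 1 on the PBS side, so it cannot separate them from the groups.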

How the data were processed

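RNA from 7 libraries of sorted cholangiocytes was sequenced from the 3′ end with a QuantSeq FWD kit, per the labels' protocols. The authors deposited a table of unnormalized counts, whole numbers of reads for each gene symbol. The submitters' processing notes name mm9 as the genome build. Which aligner, counter and annotation were used, and whether molecular identifiers were, is not given in the sources used here. Sample titles gave the groups and the replicate numbers.

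Genes were filtered with filterByExpr of edgeR 4.0.16 (R 4.3.3), which kept 7688 genes with 97.5% of all counts, and library sizes were scaled by TMM. The test of DT against PBS was edgeR's quasi-likelihood F test (robust, two-sided), and p-values were adjusted by Benjamini-Hochberg over all 7688 genes, with calls at 0.05. Each SE is the fold change over the root of its F statistic, and 95% intervals from the SE and the test's degrees of freedom. They cover the spread between libraries, and a limit on a count of 0 covers counting error only, since PCR reads are not independent molecules. The scripts were tested on simulated counts.

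The members, the gene lists and the alternatives were chosen with earlier results of these data known, so lists are described by counts and medians only. Genes named beside the members were the 2 with the smallest p of each list (no list had a gene called by edgeR), Foxp3, Epcam, Krt19 and Mapk7, and the 3 closest profiles of each of the 3 most counted members (prior count 2). Other genes named were chosen after their values were seen. Alternatives were upper quartile or RLE factors, no filter, testing only highly counted genes (average log2 CPM from 8 up), a block for the replicate number, DESeq2 1.42.0, limma-voom (limma 3.58.1) with sample weights, a covariate for Y-linked reads, leaving out the ribosomal RNA row Rn45s, and leaving out each library. Library sizes over all genes, used in a first run and then replaced by those after the filter, were an alternative added after seeing the data. Promoter windows came from RefSeq, GRCm38.p6. A first search of 14 motifs was followed by a search in which the EGR and AP-1 patterns were widened, and both are reported. Figures were drawn with matplotlib 3.10.9.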

Additional observations from a re-analysis of the deposited data

How the results depend on the processing

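No member passed in any alternative run: 165 values from up to 17 alternatives per member gave adjusted p of 0.570 or more. Egr1, Klf3 and Klf6 kept the sign of their log2 fold change in all of them, at 0.0057 to 0.37, -1.42 to -0.02 and 0.13 to 0.34. The sign of the other 7 changed in 21 values. In each of these 7 the main value was smaller in size than its SE, as it also was in Egr1 and Klf3. The block for the replicate number leaves PBS 4 without a DT library of its number, so PBS 4 does not inform the difference. In that fit Ier2 was at 0.0335 and Ier3 at 0.0045. The covariate for Y-linked reads marks their presence. Of the PBS libraries only PBS 1 has them, so that fit in effect sets DT against PBS 1 alone. It moved the median of highly counted genes from 0.03 to 0.14, with Ier2 at 0.16, Ier3 at 0.29, Klf5 at -0.24 and Klf10 at 1.29. The largest moves kept their sign: that covariate took Klf4 from 0.47 to 2.31 and Klf2 from 0.89 to 10.9 (SE 7.34), and the block took Klf2 to 7.90 (SE 8.38). By limma-voom Klf9 was at 0.33. When 1 library was left out, Ier2 ran from -0.45 to 0.0835, Ier3 from -0.23 to 0.18, Klf2 from -1.01 to 1.74, Klf4 from -0.29 to 0.75, Klf5 from -0.35 to 0.47, Klf9 from -0.48 to 0.30 and Klf10 from -1.25 to 0.38. Over all genes, against 0 higher and 3 lower (107 and 162 at an unadjusted edgeR p below 0.05), counts were 1 and 7 with no filter, 6 and 6 with the replicate block, 47 and 136 by DESeq2, and 6 and 6 by limma-voom. The filter at 8 gave 5 lower, and the Y-linked covariate 23 higher. Library sizes over all genes, added after seeing the data, gave 0 higher and 3 lower. Without 1 library at a time, 0 to 1 genes were higher and 1 to 4 lower. Some settings tested fewer libraries or genes, and the block and the Y-linked covariate in effect used fewer PBS libraries. The cause of other changes was not tested. Same-numbered libraries did not deviate together (correlations of -0.06 to 0.0251 over 733 genes, 1 of 3 DT libraries correlating best with its own number), so the numbers are not taken as pairs. The SE was largest for Klf2 (2.83), Klf10 (1.33) and Klf3 (1.32), the members with the lowest mean CPM; the part of depth in this was not tested.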
